A study of Mus musculus with 18 samples.

Results

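The genes described here are 32 genes of the integrated stress response and the unfolded protein response, taken as a written list of gene symbols and found in the mRNA gene table of NIH/3T3 mouse fibroblasts. All 32 were among the 14688 genes with enough reads to be tested, out of 55401 gene IDs in the table. The mRNA libraries were 3 of wild-type (WT) NIH/3T3 cells and 3 of NIH/3T3 cells with an XPO4 knockout (KO), both untreated as far as the labels say, and XPO4 is a protein that carries cargo out of the nucleus. The KO was a cell line made with CRISPR-Cas9 in which both Xpo4 copies carry the same edit. Effects of the edit cannot be told apart here from other differences between the KO and WT lines. The circRNA libraries were 2 each of nuclear, cytoplasmic and whole-cell RNA per genotype, digested with RNase R to remove linear RNA. No source says that libraries of one genotype came from separate cultures, so the p-values measure only the spread between these libraries.

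Genotypes follow the sample titles. The heading inside each of the 6 mRNA files names an alignment of the other genotype, and Xpo4 does not settle the matter. Its normalised level was 33.01, 31.52 and 31.18 CPM (counts scaled to a common library size) in the WT libraries and 39.8, 28.4 and 40.4 CPM in the KO libraries, a log2 fold change of 0.18 with a 95% confidence interval of -0.06 to 0.42 (edgeR, adjusted p = 0.193). Without KO replicate 2 the log2 fold change was 0.34 (adjusted p = 0.000252), towards more Xpo4 mRNA in the libraries titled KO. An edit that stops the protein need not lower its mRNA. If the headings rather than the titles were right, every direction given here for mRNA would turn.

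Counted fragments per mRNA library were between 16974062 and 22057323. KO replicate 2 stood farthest from its group, with a chi-square per gene of 10.3 and 12.0 against the other KO libraries, where the other pairs of replicates gave 3.05 to 5.01. The 9 fibroblast markers all reached 1 FPKM (fragments per kilobase of exon and per library size) in both genotypes. Since the labels' RNA extraction text speaks of peripheral blood, leukocyte markers were examined too. Their 6 genes summed to 4.04 to 5.90 FPKM in WT and 2.45 to 3.43 FPKM in KO libraries. Most of that was Cd68, at a mean of 4.75 FPKM in WT and 2.90 FPKM in KO, and Cd3e had no count. The fibroblast genes summed to 2678 to 2869 FPKM over both genotypes. The erythroid and platelet markers Hbb-bs, Hba-a1, Alas2 and Ppbp summed to 2.75 to 3.83 FPKM in WT and 1.22 to 1.24 FPKM in KO libraries, mostly the platelet chemokine gene Ppbp in WT at a mean of 2.94 against 0.596 FPKM, and Hbb-bs had no count. The 5 epithelial markers summed to at most 2.96 FPKM, mostly Krt14, at a mean of 2.69 FPKM in WT and 0.376 FPKM in KO. Epcam and Krt18 had no count. The 4 endothelial markers summed to at most 0.244 FPKM. The part of these low levels in the results was not tested. In bulk RNA, fewer cells that express a gene and less RNA per cell cannot be told apart.

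Cells meet a shortage of amino acids, or an overload of unfolded protein in the endoplasmic reticulum (ER), by slowing translation through phosphorylation of eIF2alpha, which favours translation of the transcription factor ATF4. ATF4 turns on genes of amino acid synthesis and transport and the factor CHOP, the product of Ddit3. In the ER, the sensors IRE1, ATF6 and PERK start the unfolded protein response, in which spliced XBP1 and cleaved ATF6 raise chaperones such as BiP. The ER stress response element (ERSE) is the promoter sequence bound by ATF6 and XBP1 together with NF-Y, and the C/EBP-ATF site is bound by ATF4 with a C/EBP partner.

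The division between these arms was the main feature of the list, whose genes and roles were chosen with earlier results of these data known. Of 32 genes, 13 were higher and 13 lower in KO than in WT, and 6 did not pass the test (edgeR's quasi-likelihood test, Benjamini-Hochberg adjusted p under 0.05 over all genes tested). Of all genes tested, 48.7% passed, 25.1% higher and 23.6% lower in KO, so a call of a single gene was common in this contrast. The 2 directions were not spread evenly over the roles. The ER chaperones and quality control genes were higher in 8 of 10 cases and lower in 0, while the amino acid and one-carbon genes were lower in 6 of 8 and higher in 0. Over the whole list the median log2 fold change was 0.06, and -0.0029 over all genes tested. By role it was -0.0017 for the 6 transcription factors, -0.93 for the 4 feedback and effector genes, -0.39 for the 8 amino acid and one-carbon genes, 0.28 for the 4 sensors and their factors, and 0.48 for the 10 ER chaperones.

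**Figure D1:**
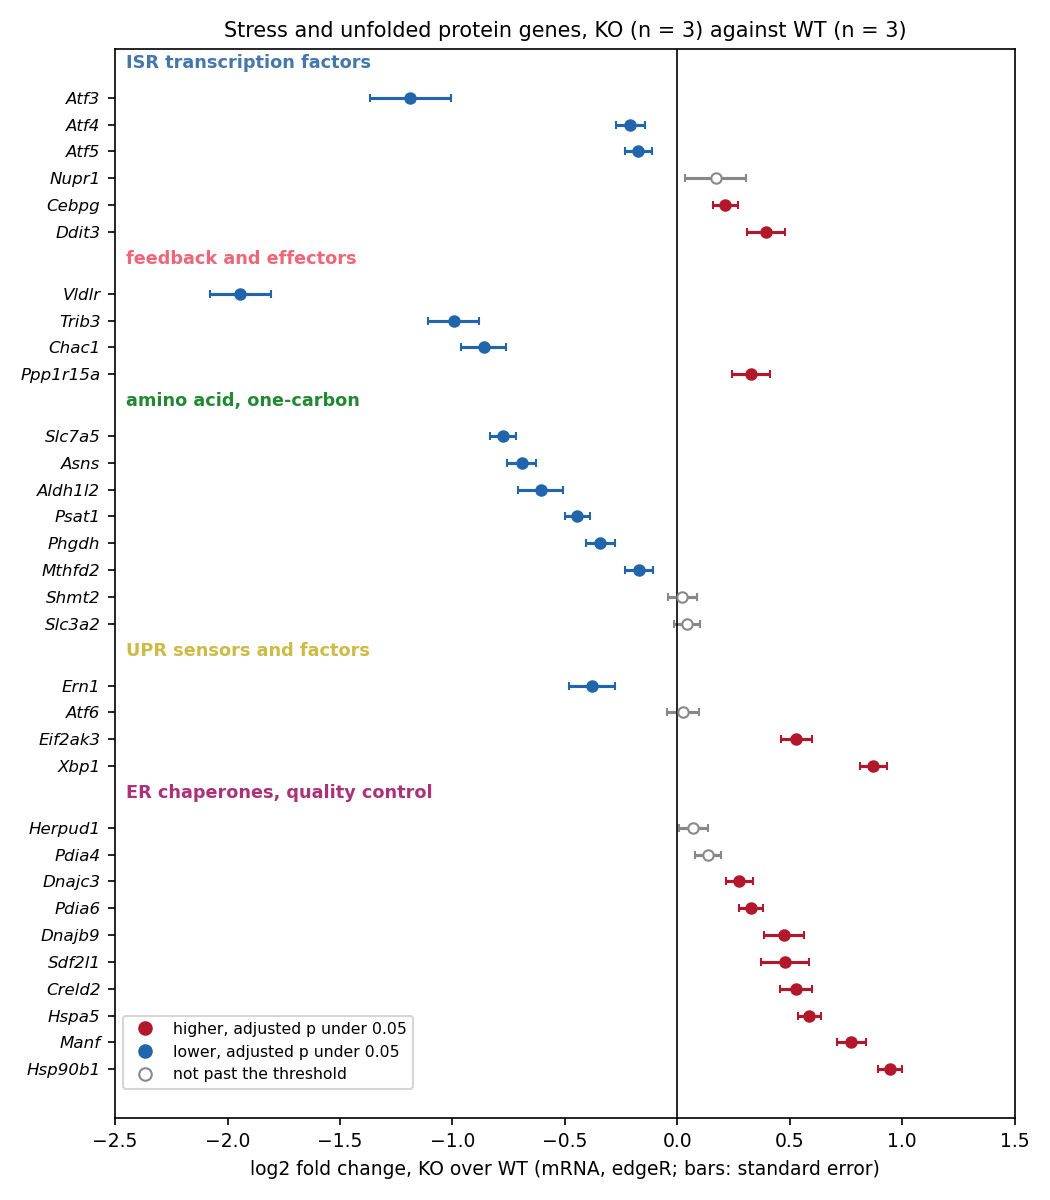
Log2 fold change of KO over WT for the 32 genes, grouped by role, with the standard error as bars (3 libraries per genotype, genotypes by title). Filled red points passed the test as higher in KO, filled blue points as lower, and open grey points did not pass. The ER chaperones lie to the right of 0 and 6 of the 8 amino acid and one-carbon genes to the left with a passed test.

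By size, 6 of the 32 genes were higher with a log2 fold change of at least 0.5 and 7 were lower by as much, where 11.2% of all genes tested fell in the first class and 11.2% in the second. In 14 genes all 3 KO libraries lay above all 3 WT libraries, as in 29.1% of all genes tested, and in 13 genes all lay below, as in 28.7%. Without KO replicate 2 the counts were 14 higher and 13 lower.

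The promoters of the ER chaperones are shown first, because several hold the ERSE. That element was defined on promoters of ER chaperone genes such as Hspa5, so its presence in a list of such genes describes their sequence and is no independent result. RefSeq promoters (250 bases before to 50 after the gene start, assembly GRCm38.p6) were present for 28 of the 32 genes, with no entry used for Aldh1l2, Slc7a5, Atf6 and Manf. The ERSE was searched on both strands as CCAAT and CCACG with 9 bases between them. It was present in the promoters of 5 of the 28 genes, and all 5, Hspa5, Hsp90b1, Creld2, Pdia6 and Dnajc3, were among the 9 ER chaperones with a promoter entry. Among 27025 genes with a promoter, 37 held it, a share of 0.137%. Each of the 5 genes passed the test as higher in KO, with log2 fold changes between 0.28 and 0.95. Of the ER chaperones with an entry and no match to these letters, Dnajb9 at 0.47 and Sdf2l1 at 0.48 also passed as higher. Pdia4 and Herpud1, likewise without a match, did not pass. Forms with a changed base in CCAAT or CCACG were not searched. In the 250 bases before the start of Hspa5 and of Hsp90b1, printed 5′ to 3′ on the gene's strand, capitals mark the ERSE. Hsp90b1 held 2 in opposite orientation.
Hspa5, chr2:34771840-34772089, plus strand: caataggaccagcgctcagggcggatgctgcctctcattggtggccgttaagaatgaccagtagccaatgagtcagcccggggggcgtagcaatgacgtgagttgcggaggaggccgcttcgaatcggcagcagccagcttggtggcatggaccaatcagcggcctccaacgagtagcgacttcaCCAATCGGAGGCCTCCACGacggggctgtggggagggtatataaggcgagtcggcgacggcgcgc
Hsp90b1, chr10:86705445-86705694, minus strand: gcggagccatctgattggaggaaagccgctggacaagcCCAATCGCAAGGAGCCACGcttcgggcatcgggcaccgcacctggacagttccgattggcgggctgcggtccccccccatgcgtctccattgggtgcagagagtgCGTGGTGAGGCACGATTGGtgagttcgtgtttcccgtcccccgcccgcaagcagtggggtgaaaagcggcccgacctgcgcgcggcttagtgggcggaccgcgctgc

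For the other 3 genes the element is shown with 10 bases on each side, to let its fixed ends be compared with its variable middle. The element of Creld2 reads in the opposite orientation to the gene.
Creld2, chr15:88819510-88819548, plus strand: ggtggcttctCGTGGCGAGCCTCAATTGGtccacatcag
Pdia6, chr12:17266481-17266519, plus strand: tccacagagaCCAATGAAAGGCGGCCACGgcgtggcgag
Dnajc3, chr14:118937817-118937855, plus strand: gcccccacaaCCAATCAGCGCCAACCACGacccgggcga

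The short form ERSE-II, searched as ATTGG and CCACG with 1 base between them, was present in Herpud1 alone of the 28, and in 12 of all genes with a promoter (0.0444%). Herpud1, whose product works in ER-associated degradation, did not pass the test at a log2 fold change of 0.07 (95% confidence interval -0.07 to 0.21, adjusted p = 0.393). The full C/EBP-ATF site TGATGCAAT was held by Nupr1 alone of the 28 and by 60 of all genes (0.222%). Nupr1, a small stress-induced chromatin factor, was at a log2 fold change of 0.17 with an adjusted p of 0.321.
Herpud1, chr8:94386367-94386397, plus strand: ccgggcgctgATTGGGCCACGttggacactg
Nupr1, chr7:126625563-126625591, minus strand: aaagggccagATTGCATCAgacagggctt

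When the site was loosened to TGATGNAAT or TGATGNAAC, a choice made after the matches of the full site were seen, 5 of the 28 genes held it (Chac1, Vldlr, Asns, Nupr1 and Herpud1), against 526 of all genes (1.95%). Chac1, Vldlr and Asns were lower in KO. Every match of the full site is also a match of the loosened one. The loosened sites of the 3 lower genes are given with 10 bases on each side and the site in capitals. A match describes these letters in this window, and occupancy was not measured. Many of the genes were listed as part of the ATF4 pathway. As for the ERSE, the share with a site that ATF4 binds describes their sequence and is no independent result.
Chac1, chr2:119351038-119351066, plus strand: cttccctgccGTTGCATCActcctgccag
Vldlr, chr19:27216809-27216837, plus strand: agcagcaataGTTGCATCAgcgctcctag
Asns, chr6:7693214-7693242, minus strand: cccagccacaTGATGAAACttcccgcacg

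The transcription factors of the integrated stress response did not move as one. Of the 6, Ddit3 and Cebpg were higher in KO, Atf3, Atf4 and Atf5 were lower, and Nupr1 did not pass. Atf4 (chr15:80255184-80257541) encodes the factor at the centre of the response. Its level was 503, 536 and 531 CPM in WT and 430, 497 and 431 CPM in KO. All KO libraries lay below all WT libraries, but the gap was small, with KO replicate 2 close to the WT range. The log2 fold change was -0.21 with a standard error (SE) of 0.06 (edgeR, adjusted p = 0.0148), 1.16-fold lower. Left without WT replicate 2, WT replicate 3, KO replicate 1 or KO replicate 3 in turn, Atf4 no longer passed, with adjusted p between 0.0595 and 0.0833. ATF4 is regulated mainly in its translation, which mRNA counts do not measure.

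Ddit3 (chr10:127290774-127296288) encodes CHOP, a factor that links lasting stress to cell death. Its level was 32.3, 34.7 and 37.1 CPM in WT and 44.3, 51.2 and 41.3 CPM in KO. The KO libraries were the higher without overlap, by a log2 fold change of 0.39 (SE 0.09, adjusted p = 0.00192). The other tested genes of chromosome 10 had a median log2 fold change of 0.45, and 66.0% of the chromosome's tested genes were called higher. Relative to that median Ddit3 was at -0.051, so its difference was the size of that of its chromosome. Chromosome Y stood farther still, with a median log2 fold change of 10.0 over its 7 tested genes, 85.7% of them called higher in KO. Why chromosomes 10 and Y stood higher was not tested. Ddit3 also shares 10.9% of its exon bases with other annotated genes, and the counting used no strand. Among them are Mars on the opposite strand and another gene ID with the symbol Ddit3 on the same strand. Counts of that other ID are not part of the values given here.

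Atf3 (chr1:191170296-191218039) encodes a stress-induced repressor and activator that ATF4 turns on. It was at 9.19, 6.83 and 8.74 CPM in WT and at 3.07, 4.50 and 3.29 CPM in KO. The KO libraries were all lower, by a log2 fold change of -1.19 (SE 0.18, adjusted p = 0.000121), 2.28-fold. Chromosome 1 had a median of -0.21 over its other tested genes, and Atf3 stood at -0.98 relative to it. Atf5, an activating factor of the ATF4 family, had a log2 fold change of -0.17 (adjusted p = 0.0285), and no longer passed without WT replicate 3, KO replicate 1 or KO replicate 3. Cebpg, a C/EBP partner of ATF4, had one of 0.21 (adjusted p = 0.00627).

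Of the feedback and effector genes, 3 of 4 were lower in KO. Vldlr (chr19:27216484-27254231), a lipoprotein receptor that ATF4 signalling raises, was at 23.1, 21.9 and 22.8 CPM in WT and 4.58, 7.32 and 5.70 CPM in KO. No KO library came near the WT range. The log2 fold change was -1.94 (SE 0.13, adjusted p = 8.15e-08), 3.85-fold lower, the largest absolute change of the 32 genes.

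Trib3 (chr2:152337422-152344032), a pseudokinase that dampens ATF4 and CHOP, was at 16.8, 17.9 and 17.7 CPM in WT and 8.94, 9.85 and 7.46 CPM in KO. The groups did not overlap, and the log2 fold change was -0.995 (SE 0.11, adjusted p = 9.04e-06), 1.99-fold lower. Chac1 (chr2:119351229-119354381), a glutathione-degrading enzyme downstream of ATF4, was at 16.03, 15.04 and 16.02 CPM in WT and 8.94, 8.22 and 8.75 CPM in KO. It was 1.82-fold lower, with a log2 fold change of -0.86 (SE 0.10, adjusted p = 1.22e-05). Ppp1r15a, which encodes GADD34, the stress-induced subunit that brings a phosphatase to eIF2alpha, went the other way at a log2 fold change of 0.33 (SE 0.09, adjusted p = 0.00666).

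**Figure D2:**
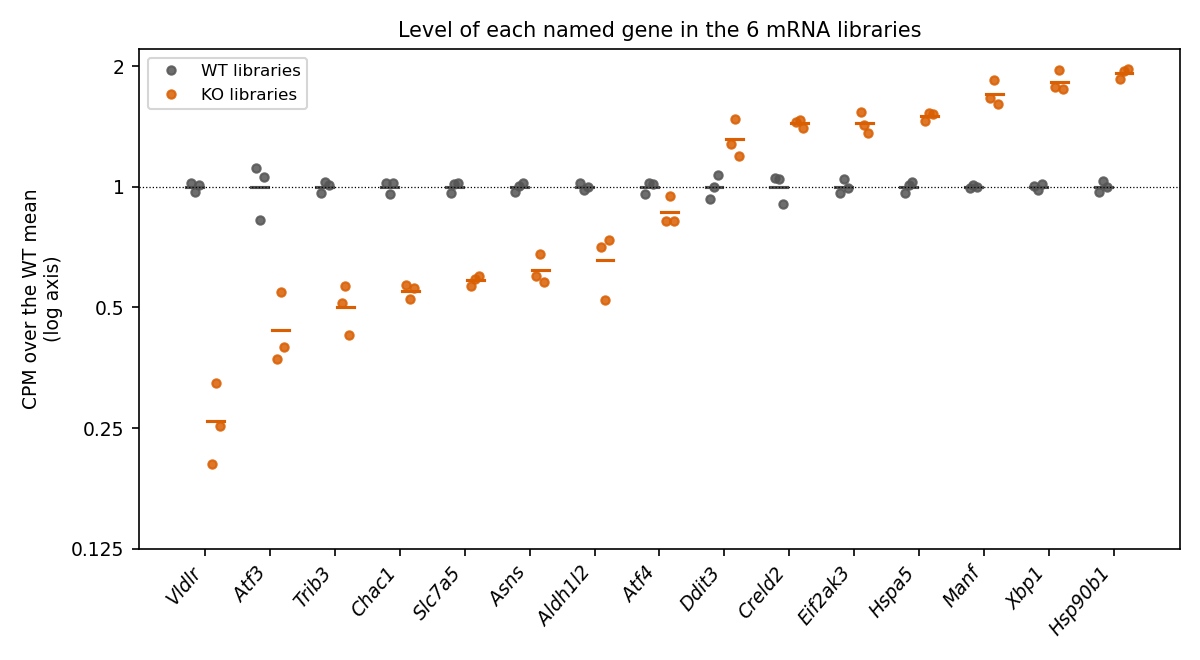
Level of the 15 genes described library by library, as CPM divided by the gene's WT mean on a log axis (grey, WT; orange, KO; genotypes by title; short lines, means of 3 libraries). KO points lie under the WT points for the genes from Vldlr to Atf4 and over them from Ddit3 to Hsp90b1, with the widest gap in Vldlr.

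Among the amino acid and one-carbon genes, Slc7a5 (chr8:121881150-121907694) encodes the light chain of the transporter LAT1, which brings in large neutral amino acids. It was at 126, 133 and 133 CPM in WT and 73.7, 76.8 and 78.4 CPM in KO. The spread within each genotype was small beside the gap, and the log2 fold change was -0.78 (SE 0.06, adjusted p = 1.27e-07). Its partner heavy chain, Slc3a2, did not pass, at 0.04 with a 95% confidence interval of -0.08 to 0.17 (adjusted p = 0.567).

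Asns (chr6:7675169-7693254), asparagine synthetase, was at 197, 204 and 207 CPM in WT and 121, 138 and 117 CPM in KO. All KO libraries were lower, by a log2 fold change of -0.69 (SE 0.06, adjusted p = 1.49e-06), 1.62-fold. The serine synthesis genes Psat1 and Phgdh had log2 fold changes of -0.45 (SE 0.06) and -0.34 (SE 0.06), adjusted p 2.16e-05 and 0.000585.

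In mitochondrial one-carbon metabolism, Aldh1l2 (chr10:83487450-83534140), which oxidises formyl-tetrahydrofolate, was at 87.8, 84.0 and 85.4 CPM in WT and 60.8, 44.8 and 63.3 CPM in KO. KO replicate 2 was the lowest of the KO libraries, and the log2 fold change was -0.61 (SE 0.10, adjusted p = 0.000216), or -0.46 without that library. Against its chromosome's median of 0.45, Aldh1l2 stood at -1.05. It shares 14.1% of its exon bases with a gene on the opposite strand. Mthfd2, a dehydrogenase of the same route, had a log2 fold change of -0.17 (adjusted p = 0.0370). It failed the test when WT replicate 2, WT replicate 3, KO replicate 1 or KO replicate 3 was left out, with DESeq2 (adjusted p = 0.0860) and with no filter on low counts (adjusted p = 0.0539). Shmt2, which makes glycine and one-carbon units from serine, did not pass, at 0.02 (adjusted p = 0.796), and was at -0.42 relative to chromosome 10.

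Of the sensors and their factors, Xbp1 (chr11:5520659-5525893) encodes the factor that IRE1 activates by splicing its mRNA. It was at 55.4, 54.1 and 56.2 CPM in WT and 97.9, 108 and 97.0 CPM in KO. The KO libraries were all far above, with a log2 fold change of 0.87 (SE 0.06, adjusted p = 9.32e-08), 1.83-fold. Gene-level counts do not separate the spliced from the unspliced form.

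Eif2ak3 (chr6:70844515-70905245) encodes PERK, the sensor kinase that phosphorylates eIF2alpha. It was at 34.6, 37.5 and 35.7 CPM in WT and 55.2, 51.3 and 49.0 CPM in KO, a log2 fold change of 0.53 (SE 0.07, adjusted p = 3.09e-05). Chromosome 6 had a median of -0.13, so the gene moved against its chromosome, at 0.65 relative to it. An antisense gene shares 8.05% of its exon bases. Ern1, which encodes IRE1, was lower, at -0.38 (SE 0.10, adjusted p = 0.00722), and Atf6 did not pass, at 0.03 with a 95% confidence interval of -0.13 to 0.18 (adjusted p = 0.781).

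Of the 10 ER chaperones and quality control genes, 8 passed as higher in KO. Hspa5 (chr2:34771970-34777547) encodes BiP, the main Hsp70 chaperone of the ER. It was at 387, 403 and 410 CPM in WT and 584, 610 and 608 CPM in KO. The 2 genotypes were widely apart, with a log2 fold change of 0.59 (SE 0.05, adjusted p = 8.31e-07), 1.50-fold.

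Hsp90b1 (chr10:86690209-86705509), the ER Hsp90 chaperone also called GRP94, was at 363, 385 and 373 CPM in WT and 696, 729 and 735 CPM in KO. Its log2 fold change of 0.95 (SE 0.05, adjusted p = 9.01e-09) was the largest rise of the 32 genes, 1.93-fold. It lies on chromosome 10, and relative to that chromosome's median of 0.44 it stood at 0.50. Other annotated genes, 1810014B01Rik on the opposite strand among them, share 15.7% of its exon bases.

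Manf (chr9:106838312-106891979), a secreted ER-resident survival factor, was at 49.1, 49.9 and 49.3 CPM in WT and 82.2, 91.5 and 79.7 CPM in KO. The WT libraries were nearly equal and all KO libraries lay above them, with a log2 fold change of 0.77 (SE 0.06, adjusted p = 4.87e-07). Of its exon bases 9.25% overlap other genes, Dcaf1 on the opposite strand among them. Creld2 (chr15:88819646-88826683), a disulfide isomerase-like ER protein, was at 40.7, 40.3 and 34.9 CPM in WT and 56.1, 56.7 and 54.0 CPM in KO. Its log2 fold change was 0.53 (SE 0.07, adjusted p = 4.56e-05), against a chromosome 15 median of -0.12.

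Another 4 chaperone genes passed with smaller differences. The genes of the J-domain cochaperones of BiP, Dnajb9 and Dnajc3, had log2 fold changes of 0.47 (adjusted p = 0.000700) and 0.28 (adjusted p = 0.00182). Sdf2l1, whose product works with BiP, had one of 0.48 (adjusted p = 0.00235), and Pdia6, a protein disulfide isomerase, one of 0.33 (adjusted p = 0.000205). The disulfide isomerase gene Pdia4 lay higher in all KO libraries without passing, at 0.14 with a 95% confidence interval of 0.01 to 0.26 before adjustment and an adjusted p of 0.0619. It passed when KO replicate 1 or KO replicate 2 was left out.

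**Figure D3:**
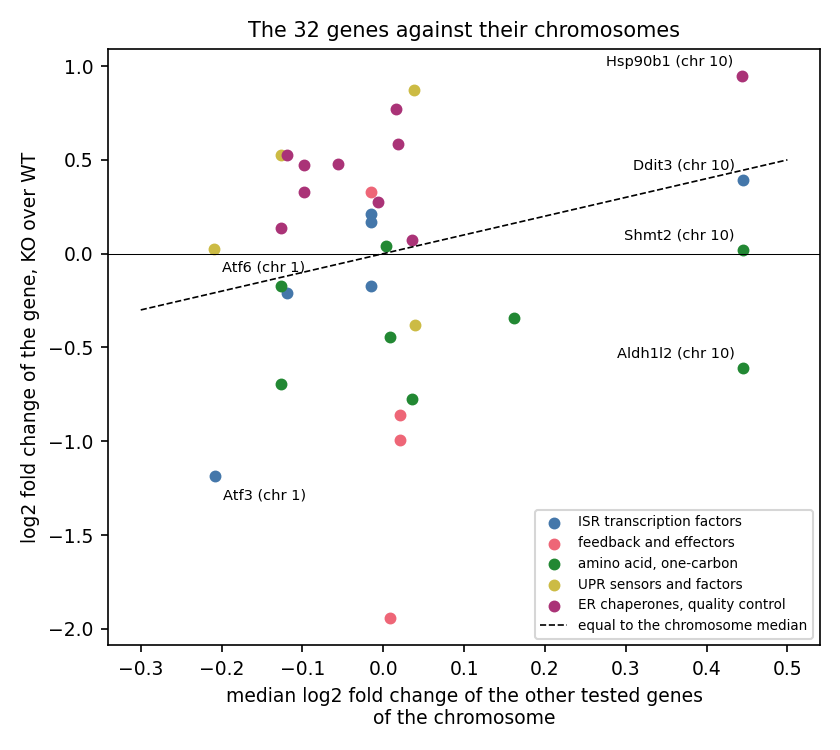
Log2 fold change of each of the 32 genes (vertical) against the median log2 fold change of the other tested genes of its chromosome (horizontal), coloured by role. Points on the dashed line differ between genotypes as much as their chromosome does: Ddit3 lies near it at 0.39 against 0.45, while Hsp90b1 lies over it at 0.95 and Aldh1l2 under it at -0.61.

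Relative to the chromosome medians, the role medians were -0.07 for the transcription factors, -0.95 for feedback and effector genes, -0.48 for amino acid and one-carbon genes, 0.45 for the sensors and 0.52 for the ER chaperones. The arms stood at least as far apart on that scale, and Ddit3 was the only called gene of the 32 whose sign turned.

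Levels between genes can be compared per exon length, in FPKM over the library total. Atf4 was the most abundant of the 32 in WT at 222 ± 6.97 FPKM (SD, n = 3) and Vldlr the least at 2.24 ± 0.0664 FPKM. Phgdh at 162 ± 3.64 and Psat1 at 112 ± 3.49 FPKM followed Atf4. Hspa5 and Hsp90b1 were neighbours in WT at 94.4 ± 2.64 and 92.6 ± 2.64 FPKM, a difference within their spread. In KO they were at 142 ± 2.87 and 178 ± 4.87 FPKM, and Hsp90b1 was near Atf4 at 192 ± 15.01 FPKM. Vldlr in KO was at 0.582 ± 0.132 FPKM. Hspa5 and Hsp90b1 were thus among the 5 most abundant of the list in WT, while Vldlr, Atf3 and Trib3, with the largest falls, were among the 9 least abundant genes of the list in WT.

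**Figure D4:**
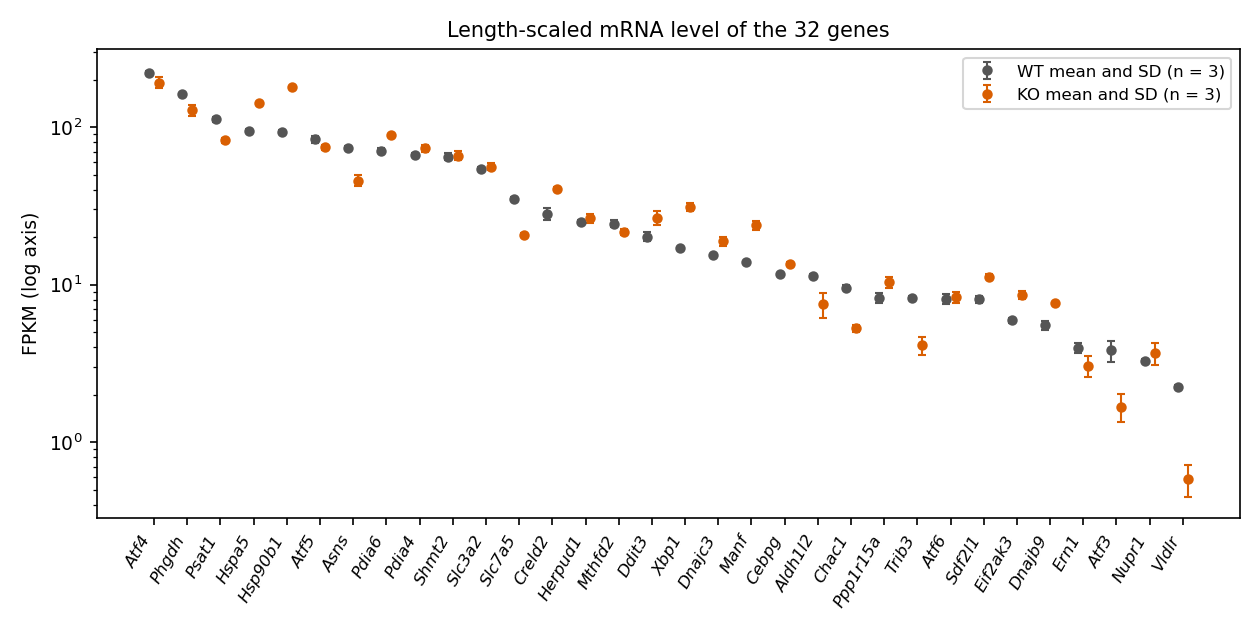
Length-scaled level of the 32 genes in FPKM on a log axis, ordered by the WT mean (points, mean of 3 libraries; bars, SD; genotypes by title). Atf4 leads at 222 FPKM in WT and Vldlr closes at 2.24 FPKM; Hsp90b1 reaches 178 FPKM in KO.

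Genes of the same pathways outside the list were taken as 8 further lists of 128 genes, of which 123 were tested: 43 were higher, 37 lower and 43 did not pass. Those shares were 35.0% higher and 30.1% lower, beside 25.1% and 23.6% of all genes tested. These lists were read from the same libraries and fit and were chosen with earlier results of these data known. They are therefore no independent support for the division between the arms. The ER lists held no lower gene. Of 19 other ER chaperones and foldases 14 were higher (median 0.32), with Fkbp14, a prolyl isomerase, at 0.88, Calr, the lectin chaperone calreticulin, at 0.87 and Fkbp2 at 0.81. Of 18 tested genes of ER-associated degradation 14 were higher (median 0.31), led by Selenos at 0.73, the lectin gene Os9 at 0.70 and the ubiquitin-conjugating enzyme gene Ube2g2 at 0.69. Os9 and Ube2g2 lie on chromosome 10 and stood at 0.26 and 0.25 relative to its median. The ERSE was present in 3 of 17 and 2 of 15 promoters of these lists. Those were Calr, the calnexin gene Canx, Ero1b, Syvn1, which encodes the ubiquitin ligase HRD1, and Derl3, of which Ero1b did not pass the test (-0.011, adjusted p = 0.961) and Derl3 had too few reads to be tested.

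On the ATF4 side, 14 of 23 other tested targets of ATF4 and CHOP were lower, 3 higher and 6 not past the test. Their median of -0.24 lay inside the middle 50% of all genes tested, from -0.28 to 0.27. Cth, which makes cysteine from cystathionine, was at -1.90 and Slc7a11, the cystine transporter subunit, at -1.45, followed by the proapoptotic gene Bbc3 at -0.90. The 3 higher genes were Tnfrsf10b at 0.36, the tRNA exportin gene Xpot at 0.32 and Ddit4 at 0.24. Xpot and Ddit4 lie on chromosome 10 and turned to -0.13 and -0.20 relative to its median. Cbs, Fgf21 and Gdf15 had too few reads to be tested. Of 20 cytosolic aminoacyl-tRNA synthetase genes, which charge tRNAs with amino acids, 11 were lower and 0 higher. Their median of -0.22 also lay inside that middle 50%. Lars was at -0.53, Eprs at -0.48 and Iars at -0.41, and Eprs, on chromosome 1, was at -0.28 relative to that chromosome. The full C/EBP-ATF site was held by 2 of the 13 synthetase genes with a promoter entry, Aars and Iars, against 0.222% of all genes. The loosened site, chosen after full-site matches were seen, was held by 5 of the 13, against 1.95% of all genes. These genes were listed on the ATF4 side, so both shares describe their sequence and are no independent result.

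The remaining lists were mixed. Beside the 25.1% higher and 23.6% lower of all genes tested, the ER stress transducers were near those shares at 30% each. The mitochondrial stress route was under them at 11.1% each. Of the 14 genes of eIF2alpha, its kinases, its phosphatase and eIF2B, 6 were lower and 2 higher (median -0.10), with the kinase gene Eif2ak2 (PKR) at -0.50, Ppp1r15b at -0.25 and Gcn1 at -0.23, and with Eif2b4 at 0.27 and Eif2s2 at 0.17. Among 10 tested ER stress transducers 3 were higher and 3 lower, Wfs1 at 0.71, Creb3 at 0.71 and Creb3l2 at 0.37 against Traf2 at -0.32, Mbtps1 at -0.24 and Crebrf at -0.19. The 9 genes of the mitochondrial stress route gave 1 higher, the protease gene Clpp at 0.34, and 1 lower, the mitochondrial Hsp70 gene Hspa9 at -0.13. Of 10 cytosolic heat shock genes 6 were higher and 2 lower (median 0.33). Hsph1, an Hsp110 cochaperone, was at 1.13, and the near-identical copies Hspa1a and Hspa1b, between which reads cannot be assigned with certainty, at 0.80 and 0.71. Hsp90ab1, a cytosolic Hsp90, was at -0.24, and the small heat shock gene Hspb1, named after its value was seen because its mean counts of 37.7 in WT and 8.67 in KO were under 50, was at -1.89.

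**Figure D5:**
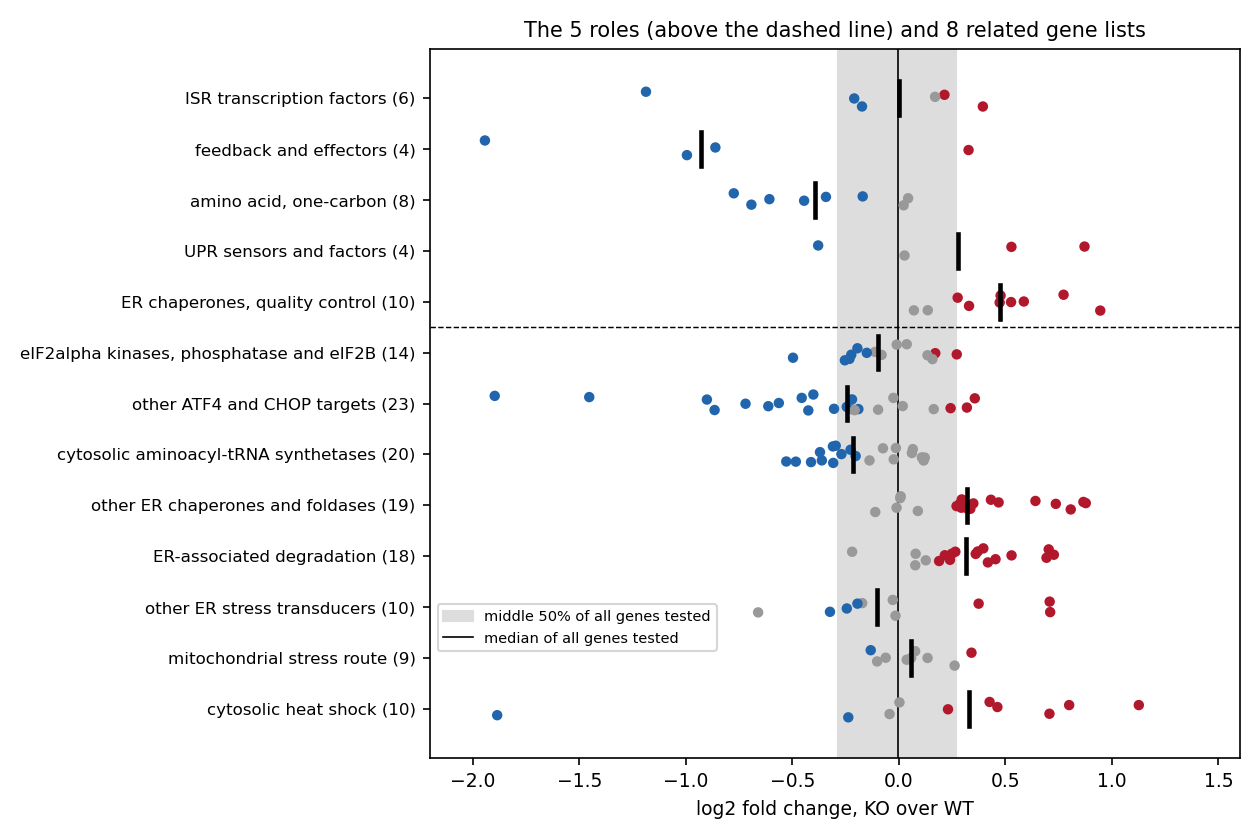
Log2 fold change of KO over WT for each tested gene of the 5 roles of the 32 genes and of 8 related lists (points; red, higher; blue, lower; grey, not past the test), with each list's median as a thick bar and the number of tested genes in brackets. The grey band spans the middle 50% of all genes tested, from -0.28 to 0.27, and 5 medians lie to its right: the 3 ER chaperone and degradation lists at 0.48, 0.32 and 0.31, cytosolic heat shock at 0.33 and the sensors at 0.28. To its left lie the feedback and effector genes at -0.93 and the amino acid and one-carbon genes at -0.39. The other ATF4 and CHOP targets at -0.24 and the synthetases at -0.22 lie inside it.

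The same gene loci were also read for circles, RNAs closed by a back-splice, in the circRNA libraries. Of 28 circles with both ends inside a member gene, 26 had both ends on exon edges of that gene and came from 9 genes, and 23 genes had none. The other 2 lay inside Manf without both ends on its exon edges and were left out. Manf overlaps Dcaf1 on the opposite strand, and the circle lists give no strand. None of the 26 was listed in a nuclear library, where all circles together gave 2176 to 4314 junction reads, against 50341 to 81941 reads in the other libraries. A circle that is not listed was read as 0. With 2 libraries per genotype, the smallest two-sided exact permutation p is 0.333, so these are values without a passable test. Among all host genes with at least 10 reads in a fraction, the KO pair lay wholly below the WT pair in 49.6% and above in 27.6% of 3649 genes in the cytoplasm, and below in 31.8% and above in 27.4% of 3586 genes in whole cells. Of the 32 genes, 6 reached that number of reads in the cytoplasm, 2 below and 2 above without overlap, and 8 in whole cells, 1 below and 3 above.

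Atf6 gave 11 of the 26 circles. In the whole-cell libraries their junction reads summed to 66 and 53 for WT against 38 and 53 for KO, and in the cytoplasm to 25 and 41 for WT against 24 and 35 for KO. The genotypes overlapped in both. One Atf6 circle (chr1:170834820-170841812) had 13 and 12 whole-cell reads for WT and was not listed in KO. Others were higher in KO: chr1:170787346-170799745 had 2 and 0 whole-cell reads for WT against 6 and 6 for KO, and chr1:170747106-170794770 had 3 and 3 against 7 and 8.

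In the cytoplasm, the 2 circles of Eif2ak3 listed there reached 19 and 19 reads for WT against 3 and 3 for KO, and the circle of Mthfd2 (chr6:83308933-83313546) reached 18 and 13 for WT against 1 and 2 for KO. Both were lower in KO without overlap, where Eif2ak3 mRNA was higher. The circle of Hspa5 (chr2:34772229-34773307) was higher in KO, as was Hspa5 mRNA, with 1 and 1 reads for WT against 9 and 6 for KO. It was not listed in the whole-cell libraries. Slc7a5 circles counted 1 and 2 for WT against 3 and 5 for KO. All cytoplasmic circles together counted 77818 and 81941 for WT against 50629 and 63335 for KO, and whether fewer reads were sequenced or fewer came from circles cannot be told apart here.

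Aldh1l2 circles counted 11 and 15 in WT cytoplasm against 16 and 12 in KO cytoplasm, overlapping, and 15 and 10 in WT whole cells against 4 and 2 in KO whole cells, not overlapping. Within the cytoplasm its circles differed among themselves: chr10:83506598-83512437 had 8 and 13 reads for WT against 0 and 2 for KO, and chr10:83506598-83516182, with the same start, had 2 and 2 for WT against 7 and 6 for KO. In the whole-cell libraries Asns counted 0 and 1 for WT against 6 and 3 for KO, Dnajc3 2 and 0 against 3 and 8, and Eif2ak3 0 and 2 against 5 and 4. The whole-cell reads of Eif2ak3 came from another circle (chr6:70882265-70897083), which was not listed in the cytoplasm. The whole-cell counts of Ern1, at 6 and 4 against 6 and 8, of Slc7a5, at 6 and 9 against 8 and 8, and of Mthfd2, at 5 and 4 against 4 and 2, overlapped or touched. Junction reads were not collapsed to molecules by any identifier named in the sources, so copies made in PCR may be counted more than once.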

How the data were processed

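Sample titles gave genotype, fraction and replicate. The authors aligned mRNA reads with HISAT2 to GRCm38 and deposited counts of fragments per gene from featureCounts (version 2.0.0, no strand option); the circle lists hold deposited counts of junction reads, with no strand. Fragments in exons of 2 genes are not counted by that setting. The 55401 gene IDs were given symbols from the reference tables (55141 matched). Genes were filtered with edgeR's own rule, normalised by TMM and compared by the quasi-likelihood test of edgeR (version 4.0.16 in R 4.3.3, two-sided, Benjamini-Hochberg over 14688 genes, threshold 0.05), after a test on simulated data. CPM are TMM-scaled and FPKM use library totals. DESeq2 (version 1.42.0), other scalings, no filter, a fold of 1.5, a replicate block and leaving out each library were alternatives. Library values were described for genes past the test with a log2 fold change of at least 0.5 either way and for Atf4, Ddit3, Xbp1 and Hspa5. In other lists up to 3 genes per direction with a mean count of at least 50 were named. Circles were summed per gene, and genes with at least 10 such junction reads over the 4 libraries of a fraction were described. 25 listings of circles at several positions were left out. The genes, lists and roles were chosen with earlier results of these data known. Of the marker genes examined, 1 is not reported here.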

Additional observations from a re-analysis of the deposited data

How the results depend on the processing

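Against a fold of 1.5 in place of any difference, the counts fell to 3 of the 32 genes higher and 5 lower, to 5 and 5 of the other pathway genes, and to 736 and 625 of all genes, as that test asks for more. Leaving out 1 library gave 13 to 14 of the 32 genes higher and 10 to 13 lower, 40 to 45 and 29 to 38 of the other pathway genes, 3226 to 3847 and 2901 to 3550 of all genes, a median of 0.02 to 0.10 over the 32 genes, and 0.10 to 0.34 for Xpo4. Minus the median of its chromosome, an alternative added after the data were seen, Ddit3 turned to -0.051. With a replicate block, 13 genes were higher and 13 lower and the median was 0.06. The numbers did not pair the libraries, since same-numbered WT and KO libraries had correlations of deviations of 0.06, 0.04 and -0.09. Over the 12 alternatives that give one, the 384 single-gene results kept direction and call in 364 cases. They lost the call in 13, all Atf4, Atf5 or Mthfd2, and gained it in 2, both Pdia4. The sign turned in 5, all of genes that did not pass the test: Shmt2 was at -0.0026 with upper-quartile scaling and between -0.030 and 0.071 with 1 library left out, and Atf6 between -0.028 and 0.086 with 1 library left out. Other scalings and DESeq2 moved no count of calls by over 1.5 times. Without the filter the median of all genes was -0.07. Circle counts limit differences to values without a test.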
